A study of Mus musculus with 12 samples.

Results

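Genes of the secretory pathway and of vesicle transport were followed in mouse skin after a thermal injury. They were all genes whose annotated symbol starts with Sec, Arf, Rab, Stx, Ssr or Srp and a number, with Kdelr, Vamp, Tmed, Spcs or Snx, or is that of a coatomer subunit (Copa, Copb, Cope, Copg or Copz). This gave 103 genes, with 131 probe sets that each name 1 gene, among 5599 genes on the array. A further 4 probe sets matched but name several genes and were not used. Total RNA of skin taken 0 hours, 2 hours, 3 days or 14 days after injury was hybridised to Affymetrix arrays, 1 array per sample and 3 per time point, 12 in all. The labels give neither strain, sex nor age and leave unsaid if skin at 0 hours had been burnt or if replicates were separate animals. Every p-value therefore covers the spread among these 3 samples per time point, which may be technical. All samples were whole skin, in which fewer cells of a type and less RNA per cell cannot be told apart.

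Proteins bound for the cell surface or the matrix are recognised by the signal recognition particle, threaded into the endoplasmic reticulum (ER) through the Sec61 channel and packed into COPII-coated vesicles for the Golgi. COPI-coated vesicles, which assemble on Arf GTPases, bring escaped ER residents back with the KDEL receptors, while Rab GTPases, SNARE proteins and sorting nexins direct later transport, membrane fusion and recycling from endosomes. In healing skin this route carries the collagens and other matrix proteins of fibroblasts, the mediators of inflammatory cells and the adhesion proteins of keratinocytes.

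The deposited value of a probe set is a linear signal intensity with no detection call. The median of the arrays lay between 448 and 496 signal units. Values under 225.375, the pooled 25th percentile, were raised to that floor, and a gene was tested where its brightest probe set exceeded 475.55, the pooled median, on at least 3 arrays. All 12 arrays entered 1 limma fit over 3477 genes, and a gene is called where its Benjamini-Hochberg adjusted p over those genes is under 0.05. Changes are differences of mean log2 intensity, later minus earlier time point, and errors after ± are standard errors of that fit. Where all 3 arrays of the earlier group were under the floor, a rise is given as a lower bound, and where fewer were, as fitted with them at the floor.

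Of the 103 members, 80 were bright enough to be tested and 23 were not. The 23 were Arf6, Rab26os, Rab3il1, Rab3ip, Rab4a, Sec14l2, Sec23ip, Sec24b, Sec62, Sec63, Snx10, Snx12, Snx13, Snx14, Snx5, Srp19, Srp54b, Ssr1, Stx18, Stx3, Stx6, Stx8 and Vamp7. Their 28 probe sets had medians over the 12 arrays of 72.4 to 373 signal units, and the highest value on any array was 552. The filter was passed by 23 of 24 Rab GTPases and by all 7 KDEL receptors and p24 proteins, but by 7 of 12 sorting nexins and 5 of 8 translocon genes. A gene that was bright at 1 time point only could pass, so counts over the 80 do not describe all members. Among the called members this was so of Rab31, which passed through its 3 days arrays alone.

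The share of members called lay near that of all genes in each comparison with 0 hours. At 2 hours against 0 hours 3 of 80 members (3.75%) were called, Arf4 higher and Kdelr3 and Stx2 lower, where 5.67% of all tested genes were called, 4% higher and 1.67% lower. At 3 days against 0 hours 11 members (13.8%) were called, 9 higher and 2 lower, where 13.3% of all genes were called, 8.89% higher and 4.4% lower. At 14 days against 0 hours 7 members (8.75%) were called, 5 higher and 2 lower, where 10.2% of all genes were called, 6.9% higher and 3.25% lower. These 3 comparisons share the 0 hours arrays and are not independent of each other. At 3 days against 2 hours 7 members (8.75%) were called, all higher, where 9.4% of all genes were called, 6.1% higher and 3.31% lower. At 14 days against 3 days limma called no member, where 3.39% of all genes were called, 1.29% higher and 2.1% lower, and 5 members had an unadjusted p under 0.05, or 6.25% of members where 11.7% of all genes had one. The F-test over the 4 time points called 13 members, where 21.2% of all genes were called. These shares are close to the background and are not a result about the pathway as a whole.

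The median change of the 80 members was 0.04 at 2 hours, 0.13 at 3 days and 0.15 at 14 days against 0 hours, beside 0.05, 0.02 and 0.05 for all genes. The quartiles of the members' change at 3 days against 0 hours were −0.17 and 0.39, beside −0.28 and 0.35 for all genes. A change of at least 1 in either direction was seen for 2 members at 2 hours, 6 at 3 days and 4 at 14 days against 0 hours, or 2.5%, 7.5% and 5.0% of members, beside 4.11%, 8.05% and 6.70% of all genes. The counts leaned on single arrays, and in the cases given here the share of all genes called moved in the same direction. The count at 2 hours was 1 without 0 hours replicate 1, where 4.14% of all genes were called. At 3 days against 0 hours it was 6 without 3 days replicate 2 (8.54% of all genes) and 3 without 3 days replicate 3 (5.12%). At 14 days against 0 hours it was 3 without 0 hours replicate 1 (4.52% of all genes), 1 without 14 days replicate 1 (3.42%), 4 without 14 days replicate 2 (6.07%) and 3 without 14 days replicate 3 (6.70%). In the comparison of 3 days with 2 hours it was 4 without 2 hours replicate 2 (4.49% of all genes), 3 without 2 hours replicate 3 (4.06%), 11 without 3 days replicate 1 (11.8%), 4 without 3 days replicate 2 (3.85%) and 2 without 3 days replicate 3 (3.22%).

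**Figure D1:**
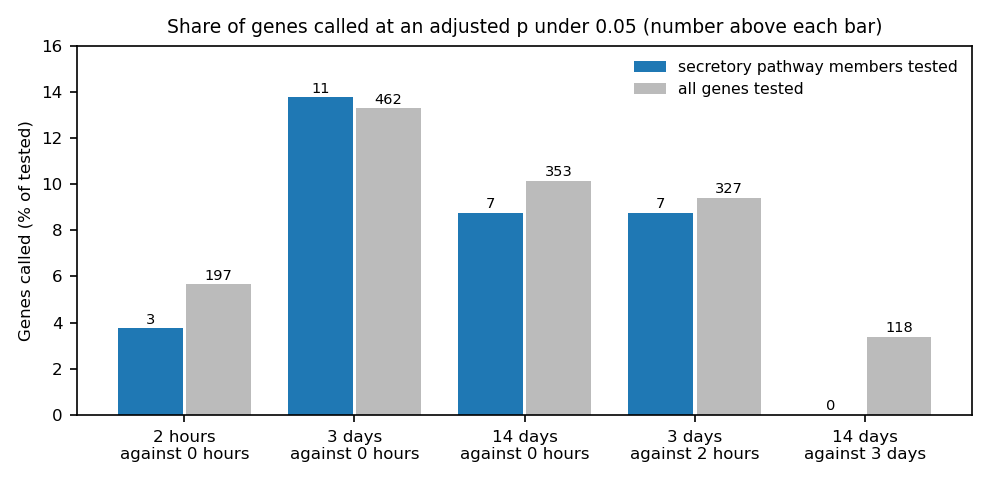
Share of tested genes called at an adjusted p under 0.05 in each of 5 comparisons, in percent, for the 80 tested members (blue) and all 3477 tested genes (grey), with the number of genes above each bar. The members reach 13.8% at 3 days against 0 hours, beside 13.3% of all genes, and 0 at 14 days against 3 days.

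Other measures moved with time in the same arrays, and their part in the changes below was not tested beyond the 2 covariate fits given here. Skeletal muscle markers (26 tested) had a mean log2 signal of 11.48 to 12.55 at 3 days and 11.98 to 12.46 at 14 days, against 12.89 to 13.75 at 0 hours, and 17 of the 26 fell at 3 days and 15 at 14 days. Of 18 monocyte and macrophage markers 17 rose at 3 days, where their mean log2 signal was 11.12 to 11.75, against 9.53 to 9.80 at 0 hours. Of 13 fibroblast markers 4 fell at 2 hours, where their mean was 12.12 to 12.14, against 12.48 to 12.61 at 0 hours, while 5 had changes above 0 that were not called. Of 12 keratinocyte markers 5 rose at 14 days, where the mean of the 12 was 12.11 to 12.51, against 11.31 to 11.82 at 0 hours. Itgb4 of the same list ran the other way, with 1440, 1328 and 1694 signal units at 14 days, against 2101, 2976.5 and 2302 at 0 hours. Of 4 mast cell markers 3 rose at 3 days, with a mean of 10.30 to 10.51, against 9.16 to 9.28 at 0 hours. All 7 tested hair follicle and melanocyte markers rose at 14 days, with a mean of 10.72 to 11.99, against 8.16 to 9.70 at 0 hours. The log2 ratio of the Gapdh 3′ to 5′ control probe sets, which is used to judge RNA integrity, was 0.05 to 1.05 at 3 days and 0.16 to 0.30 at 14 days, against 1.71 to 2.28 at 0 hours. The same ratio for actin ran otherwise, at 0.17 to 1.24 at 2 hours, 0.16 to 0.35 at 3 days and 0.30 to 0.43 at 14 days, against −0.18 to 0.24 at 0 hours, so the pair gives no common order of RNA integrity. With the Gapdh ratio as a covariate no member was called at 3 days or 14 days against 0 hours or at 3 days against 2 hours, and the counts over all genes were 4, 2 and 16. Fitted with the muscle marker mean in its place, the members called in the same comparisons were 0, 0 and 2, and the counts over all genes 5, 14 and 104. Both measures run with the time points, and their effects and those of time cannot be told apart in these arrays.

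Of the 9 genes of the signal recognition particle (SRP) and the signal peptidase 7 were tested, and none was called in any of the 5 comparisons. Their changes ran from −0.32 to 0.49 at 2 hours, from −0.61 to 0.28 at 3 days and from −0.50 to 0.66 at 14 days against 0 hours. The member with the smallest F-test p was Srp9, an SRP subunit that binds the Alu domain of the particle's RNA. Srp9 had 1118, 1616 and 1562 signal units at 0 hours, 1049, 1033 and 1342 at 2 hours, 1096, 802 and 901 at 3 days, and 1043, 1072 and 899 at 14 days. All 3 values at 3 days and at 14 days lay below all 3 at 0 hours. The change of Srp9 was −0.61 ± 0.20 (adjusted p = 0.06) at 3 days and −0.50 ± 0.20 (adjusted p = 0.13) at 14 days against 0 hours, neither past the threshold.

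The translocon is the channel through which new chains enter the ER, and 5 of its 8 genes were tested. Against 0 hours none was called. Between 2 hours and 3 days the pore subunit Sec61a1 and the small beta subunit Sec61b rose, and the median change of the 5 was 0.69, beside −0.03 for all genes. Of all tested genes 6.1% rose in that comparison. Sec61b had 1265, 1507 and 1486 signal units at 0 hours, 961, 943 and 859 at 2 hours, 1448, 2135 and 2268 at 3 days, and 2515, 1993 and 1665 at 14 days. All 3 arrays at 2 hours lay below every other array, and all 3 at 3 days lay above them. The change of Sec61b was 1.06 ± 0.21 (adjusted p = 0.0072) at 3 days against 2 hours, and −0.62 ± 0.21 (adjusted p = 0.10) at 2 hours against 0 hours. Sec61b remained called against 2 hours in each of the 12 fits that left out 1 array and lost the call in 2 of 11 other settings.

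Sec61a1 had 2889.5, 3008 and 2722 signal units at 0 hours, 2834, 2181 and 2491 at 2 hours, 3234, 4291 and 4685 at 3 days, and 4283, 3935 and 3804 at 14 days. The 3 days and 2 hours arrays did not overlap, while the 0 hours arrays overlapped those of 2 hours. The change of Sec61a1 was 0.69 ± 0.19 (adjusted p = 0.032) at 3 days against 2 hours. A second probe set for Sec61a1 had a change of 0.28 in the same comparison. Sec61a1 lost the call against 2 hours without 2 hours replicates 2 and 3 or 3 days replicates 2 and 3 (adjusted p of 0.10 to 0.16) and in 4 of 11 other settings. The other tested genes were Sec61a2, an alternative pore subunit, at −0.12 (adjusted p = 0.77), and Ssr2 and Ssr3 of the translocon-associated protein complex, at 0.69 (adjusted p = 0.16) and 0.05 (adjusted p = 0.93). For Ssr3 the 2 other probe sets above the filter had changes of 0.89 and 1.32 at 3 days against 0 hours, where the one used had 0.19.

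COPII coats form the vesicles that leave the ER, and 6 of their 8 genes were tested. Sec23b, an inner-coat subunit that activates the GTPase Sar1, rose at 3 days against 0 hours and was the 1 gene of the coat that was called in any comparison. Sec23b had 409, 613 and 337 signal units at 0 hours, 877, 484 and 664 at 2 hours, 699, 798 and 1065 at 3 days, and 845, 627 and 649.9 at 14 days. All 3 values at 3 days lay above the highest at 0 hours, and 0 hours replicate 2 was nearest to them. The change was 0.94 ± 0.27 (adjusted p = 0.032) at 3 days and 0.68 ± 0.27 (adjusted p = 0.12) at 14 days against 0 hours. Sec23b lost the call at 3 days without 0 hours replicates 1 and 3 or 3 days replicates 2 and 3 (adjusted p of 0.071 to 0.15) and in 5 of 10 other settings. Its paralog Sec23a had a change of −0.56 (adjusted p = 0.062) at 3 days, opposite in sign, and the difference between the paralogs was not tested. Sec13, Sec31a, Sec24c and the exit-site scaffold Sec16a lay between −0.10 and 0.28 at 3 days.

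Of 12 genes for COPI subunits and Arf GTPases 11 were tested. None of the 7 COPI subunits tested was called. Arf3 and Arf4 were called, and Arf1 and Arf5 were not. Arf4, a class II Arf of the ER to Golgi boundary and the trans-Golgi network, was the 1 member called at all 3 later time points against 0 hours. Arf4 had 662, 846 and 835 signal units at 0 hours, 1515, 1878 and 1191 at 2 hours, 1424, 1544 and 2317 at 3 days, and 1804, 1448 and 1502 at 14 days. Every later array lay above all 3 arrays at 0 hours. The change was 0.95 ± 0.23 (adjusted p = 0.026) at 2 hours, 1.15 ± 0.23 (adjusted p = 0.0048) at 3 days and 1.02 ± 0.23 (adjusted p = 0.013) at 14 days. Arf4 lost the call at 2 hours without 0 hours replicates 1 and 3 or 2 hours replicates 1 and 2 (adjusted p of 0.051 to 0.11) and in 4 of 11 other settings. Arf4 remained called at 3 days in each of the 12 fits that left out 1 array and lost the call in 2 of 11 other settings, and Arf4 lost the call at 14 days without 0 hours replicate 1 or 14 days replicate 1 (adjusted p of 0.054 to 0.064) and in 2 of 11 other settings. The Arf4 probe set is of the kind that may share probes with other transcripts.

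Arf3, a class I Arf that acts at the trans-Golgi network, rose at 3 days and 14 days against 0 hours on the probe set with the highest mean. Arf3 had 322, 336 and 629 signal units at 0 hours, 617, 484 and 477 at 2 hours, 576, 976 and 1086 at 3 days, and 944, 1054 and 1078 at 14 days. At 14 days all 3 arrays lay above all 3 at 0 hours, while at 3 days replicate 1 lay below 0 hours replicate 3, so those groups overlap. The change was 1.05 ± 0.28 (adjusted p = 0.021) at 3 days and 1.32 ± 0.28 (adjusted p = 0.0093) at 14 days. A second Arf3 probe set above the filter had 599, 479.8 and 842 signal units at 0 hours, 751, 462 and 516 at 2 hours, 483, 587 and 563 at 3 days, and 594, 640.5 and 784 at 14 days, with changes of −0.20 at 3 days and 0.10 at 14 days, so the rise was seen on 1 of 2 bright probe sets. The remaining Arf3 probe set lay below the filter. Arf3 lost the call at 3 days without 0 hours replicates 1 and 2 or 3 days replicates 2 and 3 (adjusted p of 0.062 to 0.11) and in 4 of 11 other settings. Arf3 remained called at 14 days in each of the 12 fits that left out 1 array and lost the call in 2 of 11 other settings.

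Arf1, which recruits COPI to the Golgi, had a change of −0.31 (adjusted p = 0.31) at 2 hours and 0.29 (adjusted p = 0.30) at 14 days against 0 hours, and Arf5 of −0.34 (adjusted p = 0.31) and 0.18 (adjusted p = 0.60). The COPI subunit furthest from 0 was Copb2, with −1.15 (adjusted p = 0.14) at 2 hours against 0 hours and 0.96 (adjusted p = 0.19) at 3 days against 2 hours. The log2 signal of Copb2 was 9.98, 11.72 and 9.97 at 2 hours, against 11.52, 11.77 and 11.82 at 0 hours. Replicate 2 at 2 hours thus lay within the 0 hours range. Copa, Copb1, Cope, Copg1, Copz1 and Copz2 lay between −0.51 and 0.50 in all 3 comparisons with 0 hours. A second Copg1 probe set above the filter had a change of −0.61 at 2 hours against 0 hours, where the one used had 0.22.

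The KDEL receptors return ER chaperones from the Golgi, and the p24 proteins (Tmed) are cargo receptors of both coats. All 7 were tested. Kdelr3 fell at 2 hours against 0 hours, and its change was the largest fall among the members in that comparison. Kdelr3 had 952, 1058 and 1005 signal units at 0 hours, 368, 353 and 277 at 2 hours, 684, 515 and 1103 at 3 days, and 1284, 1019.9 and 551 at 14 days. All 3 arrays at 2 hours lay below every other array of the series, with a geometric mean 3.04-fold lower than at 0 hours. The change was −1.60 ± 0.30 (adjusted p = 0.0068) at 2 hours against 0 hours. Kdelr3 remained called at 2 hours in each of the 12 fits that left out 1 array and in all 11 other settings. Kdelr3 rose at 3 days against 2 hours, by 1.14 ± 0.30 (adjusted p = 0.031), without overlap. Both comparisons use the 2 hours arrays, so low values there move both changes, and the 2 calls are not independent. Kdelr3 lost the call against 2 hours without 2 hours replicates 1, 2 and 3 or 3 days replicate 3 (adjusted p of 0.055 to 0.16) and in 3 of 11 other settings. At 3 days and 14 days against 0 hours the change was −0.46 (adjusted p = 0.33) and −0.16 (adjusted p = 0.78), and the 3 days and 14 days arrays spread widely, between 515 and 1103 and between 551 and 1284 signal units. The Kdelr3 probe set may share probes with other transcripts.

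The other KDEL receptors gave no call. Kdelr1 had 2659, 3224 and 2951 signal units at 0 hours, 2881, 2581 and 2517 at 2 hours, 2135, 3465 and 4360.3 at 3 days, and 4113, 3554 and 4127 at 14 days. Kdelr2 had 1032, 1156 and 949 signal units at 0 hours, 838, 932 and 880.2 at 2 hours, 871, 907 and 905 at 3 days, and 1418, 928 and 883 at 14 days. At 2 hours against 0 hours Kdelr1 had a change of −0.14 (adjusted p = 0.76) and Kdelr2 of −0.24 (adjusted p = 0.51), with overlapping groups for Kdelr1 and separate ones for Kdelr2, and no test was made of their difference from Kdelr3. Among the p24 proteins Tmed4 lay lowest at 3 days, at −0.69 (adjusted p = 0.055), and Tmed9 highest at 14 days, at 1.02 (adjusted p = 0.13).

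Many ER folding genes carry known promoter elements. The promoter windows of RefSeq (build GRCm38.p6, 250 bases before to 50 after each start) were searched on both strands for the ER stress element, CCAAT, 9 bases and CCACG, which ATF6 binds, and for TGACGTG, the core of the element that XBP1 and ATF6 bind. The letters CACG are common to both, so matches can overlap. Windows were found for 87 of the 103 members and for 14 of the 17 that were called in any comparison. No window of a member held the ER stress element, which 0.119% of all 32851 windows hold. TGACGTG was in 8 of the 104 windows of members (7.69%), beside 2.01% of all windows, and the 7 genes were Arf1, Copb1, Copb2, Kdelr3, Rab5if, Sec23a and Stx5a. Kdelr3 was the 1 of these that was called. The 200 bases before the start of Kdelr3 (chr15:79516208-79516407, plus strand) are shown because that gene had the largest fall at 2 hours, with the match in capitals, read on the minus strand and starting at position −29 from the start site. For comparison the same stretch is shown for Hspa5 (chr2:34771890-34772089, plus strand) and Pdia6 (chr12:17266389-17266588, plus strand), the 2 called ER folding genes with an ER stress element, which starts at positions −65 and −98. In Hspa5 the first run of capitals is TGACGTG, at position −157. The ER stress element was in 5 of 70 tested genes of the wider pathway list given below (7.14%), beside 0.137% of all genes with a window. Besides Hspa5 and Pdia6 these were Canx, Dnajc3 and Hsp90b1, which were not called in any comparison.
Kdelr3: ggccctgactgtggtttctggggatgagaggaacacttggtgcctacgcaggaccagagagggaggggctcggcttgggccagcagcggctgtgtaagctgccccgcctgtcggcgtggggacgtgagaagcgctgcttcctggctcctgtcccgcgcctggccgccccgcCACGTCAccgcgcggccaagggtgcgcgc
Hspa5: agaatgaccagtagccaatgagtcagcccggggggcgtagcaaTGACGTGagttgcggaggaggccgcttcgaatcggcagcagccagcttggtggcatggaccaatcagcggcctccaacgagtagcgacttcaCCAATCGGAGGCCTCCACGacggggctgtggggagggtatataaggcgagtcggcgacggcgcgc
Pdia6: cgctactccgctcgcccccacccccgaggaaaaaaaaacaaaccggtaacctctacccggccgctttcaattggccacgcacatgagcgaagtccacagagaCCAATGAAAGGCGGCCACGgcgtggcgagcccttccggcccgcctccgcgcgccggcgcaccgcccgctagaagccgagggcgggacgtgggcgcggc
A match describes the letters of the window, and the absence of one says only that these letters are not in it.

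**Figure D2:**
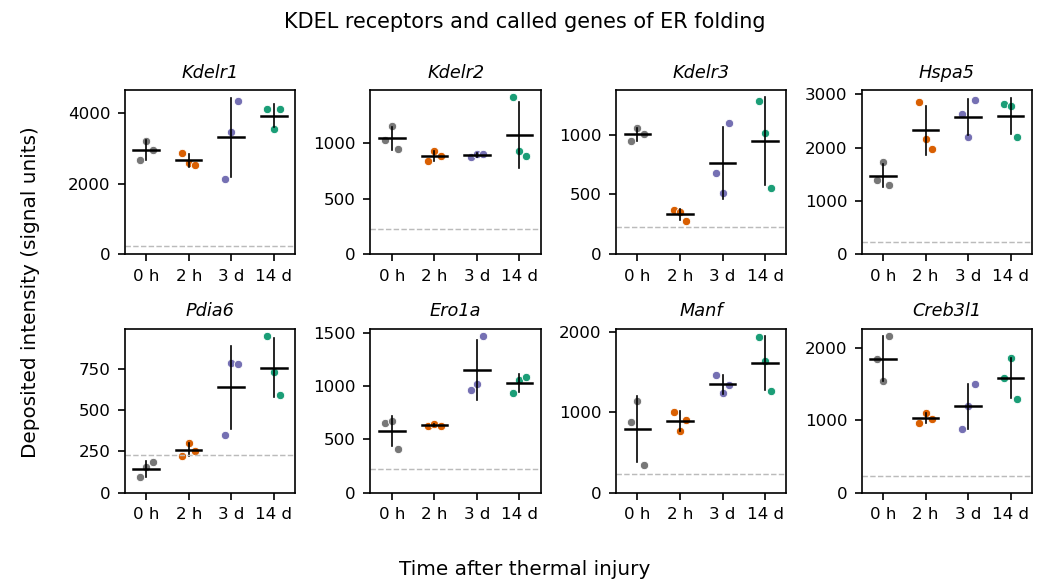
Deposited intensity (signal units, linear axis from 0) of the 3 KDEL receptors and the 5 called genes of ER folding and the unfolded protein response at 0 hours, 2 hours, 3 days and 14 days. Points are arrays, bars the mean ± SD of 3 arrays, and the dashed line is the floor of 225.375. Kdelr3 is lowest on all 3 arrays at 2 hours, while Hspa5 lies higher at each later time than at 0 hours.

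The Rab GTPases direct vesicles to their target membranes, and 23 of 24 were tested. Of these, 2 rose at 3 days against 0 hours (Rab1a and Rab31) and 2 fell (Rab12 and Rab33b), and at 14 days Rab1a rose and Rab12 and Rab33b fell. Of all tested genes 8.89% rose and 4.4% fell at 3 days, and 6.9% rose and 3.25% fell at 14 days. The median of the 23 was 0.10 at 3 days and 0.17 at 14 days. Rab33b is a Golgi Rab that also binds the autophagy protein Atg16l1. Rab33b had 813, 900.2 and 946 signal units at 0 hours, 408, 531 and 818 at 2 hours, 468, 435 and 405 at 3 days, and 389, 563 and 449 at 14 days. All 3 days and 14 days arrays lay below all 0 hours arrays, and the 2 hours arrays spread over both ranges. The change was −1.02 ± 0.24 (adjusted p = 0.011) at 3 days and −0.94 ± 0.24 (adjusted p = 0.022) at 14 days. Rab33b lost the call at 3 days without 3 days replicate 3 (adjusted p = 0.053) and in 2 of 10 other settings, and Rab33b lost the call at 14 days without 14 days replicates 1 and 3 (adjusted p of 0.059 to 0.099) and in 3 of 10 other settings. With the Gapdh ratio as a covariate its change at 14 days had the opposite sign, at 0.048. The probe set belongs to a kind that can detect a gene family, and a second, dimmer Rab33b probe set had a change of −0.25 at 3 days.

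Rab12 acts in transport of the transferrin receptor to lysosomes. Rab12 had 1398, 1048 and 1139 signal units at 0 hours, 1015, 1406 and 1099 at 2 hours, 857, 736 and 752 at 3 days, and 675, 726 and 807 at 14 days. The 3 days and 14 days arrays lay below all arrays of 0 hours and 2 hours. The change was −0.61 ± 0.19 (adjusted p = 0.048) at 3 days and −0.69 ± 0.19 (adjusted p = 0.031) at 14 days against 0 hours. Rab12 lost the call at 3 days without 0 hours replicates 1 and 3, 2 hours replicates 1 and 3, 3 days replicates 2 and 3, or 14 days replicates 1, 2 and 3 (adjusted p of 0.054 to 0.15) and in 5 of 11 other settings. Rab12 lost the call at 14 days without 0 hours replicate 1 or 14 days replicates 1, 2 and 3 (adjusted p of 0.052 to 0.12) and in 4 of 11 other settings.

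Rab1a is needed for transport from the ER to the Golgi. Rab1a had 401, 479.8 and 153 signal units at 0 hours, 444, 507 and 476 at 2 hours, 572, 656 and 706 at 3 days, and 766, 586 and 545 at 14 days. All later arrays of 3 days and 14 days lay above the 0 hours arrays, of which replicate 3 was under the floor. The change was 0.87 ± 0.25 (adjusted p = 0.032) at 3 days and 0.83 ± 0.25 (adjusted p = 0.047) at 14 days. Without 0 hours replicate 3 it was 0.55 at 3 days and 0.51 at 14 days, and neither was called. Rab1a lost the call at 3 days without 0 hours replicate 3 or 3 days replicates 2 and 3 (adjusted p of 0.084 to 0.12) and in 4 of 10 other settings. Rab1a lost the call at 14 days without 0 hours replicates 1 and 3, 2 hours replicates 1, 2 and 3, 3 days replicates 1 and 2, or 14 days replicates 1, 2 and 3 (adjusted p of 0.051 to 0.18) and in 9 of 10 other settings, among them both other scalings of the arrays.

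Rab31 carries cargo between the trans-Golgi network and endosomes. Rab31 had 332, 332 and 471 signal units at 0 hours, 276, 187 and 324 at 2 hours, 657, 545 and 930.1 at 3 days, and 396, 379 and 451 at 14 days. Its 3 days arrays lay above those of every other time point. The change was 0.89 ± 0.23 (adjusted p = 0.019) at 3 days against 0 hours and 1.35 ± 0.23 (adjusted p = 0.002) at 3 days against 2 hours, where 1 array was under the floor at 2 hours. At 14 days against 3 days it was −0.77 ± 0.23 (adjusted p = 0.10). Rab31 remained called against 2 hours in each of the 12 fits that left out 1 array and lost the call in 1 of 10 other settings, and Rab31 lost the call at 3 days without 0 hours replicate 1 or 3 days replicate 3 (adjusted p of 0.065 to 0.11) and in 4 of 10 other settings. Rab31 passed the filter through its 3 days arrays alone, so it had to be high there, and these p-values are no support for a rise. When all 5599 genes were tested without a filter, its adjusted p in limma was 0.057 at 3 days against 0 hours and 0.02 against 2 hours. A second Rab31 probe set lay below the filter.

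The other 19 Rab GTPases tested gave no call in any comparison. Among them Rab10, which acts in exocytosis of glucose transporters, lay lowest at 3 days, at −0.79 (adjusted p = 0.0501), and the recycling Rab11a highest, at 0.64 (adjusted p = 0.082). The early endosome genes Rab5a and Rab5c had −0.03 (adjusted p = 0.93) and 0.49 (adjusted p = 0.087), and the late endosome gene Rab7 had 0.10 (adjusted p = 0.82). Of 5 further genes with a Rab name 2 were tested. Rab5if gave no call, and Rab11fip5, an effector of Rab11 on recycling endosomes, rose at 3 days against 2 hours. Rab11fip5 had 423, 737 and 801 signal units at 0 hours, 564, 222 and 416 at 2 hours, 654, 788 and 976 at 3 days, and 420.2, 396 and 596 at 14 days. The 3 days arrays lay above the 2 hours arrays and overlapped those of 0 hours. The change was 1.08 ± 0.32 (adjusted p = 0.049), with 2 hours replicate 2 under the floor, and 0.72 without that array. Rab11fip5 lost the call against 2 hours without 0 hours replicate 2, 2 hours replicates 2 and 3, 3 days replicates 2 and 3, or 14 days replicates 1, 2 and 3 (adjusted p of 0.055 to 0.21) and in 10 of 10 other settings, both other scalings among them.

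SNAREs drive the fusion of membranes, and 11 of 16 were tested. At 2 hours against 0 hours 1 fell, Stx2, and at 3 days and 14 days 1 rose, Vamp3. Of all tested genes 1.67% fell at 2 hours, and 8.89% rose at 3 days and 6.9% at 14 days. Stx2 is a plasma membrane syntaxin that is also known as epimorphin. Stx2 had 1234, 839 and 913 signal units at 0 hours, 590.2, 493 and 575 at 2 hours, 911, 1125 and 957 at 3 days, and 1113, 966 and 859 at 14 days. The 2 hours arrays lay below every other array, and the other 3 time points covered much the same range. The change was −0.83 ± 0.20 (adjusted p = 0.024) at 2 hours against 0 hours and 0.85 ± 0.20 (adjusted p = 0.014) at 3 days against 2 hours. Both use the 2 hours arrays, so these 2 calls are not independent. Stx2 lost the call at 2 hours without 0 hours replicate 1 or 2 hours replicates 1, 2 and 3 (adjusted p of 0.055 to 0.088) and in 2 of 11 other settings. Stx2 lost the call against 2 hours without 2 hours replicate 2 or 3 days replicates 2 and 3 (adjusted p of 0.051 to 0.076) and in 1 of 11 other settings.

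Vamp3 is the SNARE of recycling endosomes. Vamp3 had 287, 328 and 197 signal units at 0 hours, 567, 246 and 448 at 2 hours, 539.7, 632 and 659 at 3 days, and 628, 564 and 691 at 14 days. All 3 days and 14 days arrays lay above all 0 hours arrays, of which replicate 3 was under the floor. The change was 1.13 ± 0.26 (adjusted p = 0.012) at 3 days and 1.18 ± 0.26 (adjusted p = 0.013) at 14 days, and 0.75 at 3 days with a floor at the 40th percentile. Vamp3 lost the call at 3 days without 3 days replicate 3 (adjusted p = 0.053) and in 3 of 10 other settings, and Vamp3 lost the call at 14 days without 14 days replicate 1 (adjusted p = 0.052) and in 3 of 10 other settings. Vamp3 was above the filter on no array at 0 hours, on 1 at 2 hours, on 3 at 3 days and on 3 at 14 days. It was thus tested only because it was high at the later times, and these p-values are no support for its rise. Without a filter its adjusted p in limma was 0.054 at 3 days and 0.053 at 14 days. Of the other tested SNAREs Vamp5, a SNARE of muscle and heart, lay lowest at 3 days, at −1.01 (adjusted p = 0.055). Vamp2 and Vamp8, used in exocytosis, had 0.03 (adjusted p = 0.95) and −0.36 (adjusted p = 0.26), and the Golgi SNARE Stx5a had −0.23 (adjusted p = 0.49). A second Vamp8 probe set above the filter had a change of 0.21 at 3 days, opposite in sign. Both Vamp8 probe sets belong to the kind that can detect a gene family.

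Of 12 sorting nexins 7 were tested, and 3 of them rose at 3 days against 0 hours, where 8.89% of all tested genes rose. All 7 changes were above 0 at 3 days, as were those of 1800 of 3477 genes, with a median of 0.70 beside 0.02 for all genes. All 7 were below 0 at 14 days against 3 days, as were 1474 of 3477 genes, with a median of −0.29 beside 0.05. In that comparison limma called none of the 7. Both comparisons use the 3 days arrays, so high values there move both changes, and the 2 are not independent. Snx1, Snx2 and Snx6, which bend the endosomal membrane and work with the retromer in retrieval to the Golgi, were the 3 that rose. Snx6 had 1196, 1455 and 1274 signal units at 0 hours, 1779.5, 1950.5 and 1615 at 2 hours, 2862, 2164 and 2553 at 3 days, and 2013, 1985 and 1673 at 14 days. Its 3 days arrays lay above every other array. The change was 0.94 ± 0.18 (adjusted p = 0.0037) at 3 days and 0.53 ± 0.18 (adjusted p = 0.072) at 14 days against 0 hours. Snx6 remained called at 3 days in each of the 12 fits that left out 1 array and lost the call in 2 of 11 other settings.

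Snx2 had 810.4, 708 and 553 signal units at 0 hours, 955, 1456 and 728 at 2 hours, 1551, 1481 and 1402 at 3 days, and 1602, 1112 and 1051 at 14 days. The 3 days and 14 days arrays lay above all 0 hours arrays, and the 2 hours arrays reached from the 0 hours range to the 3 days range. The change of Snx2 was 1.11 ± 0.25 (adjusted p = 0.01) at 3 days and 0.85 ± 0.25 (adjusted p = 0.045) at 14 days. A second Snx2 probe set had 508, 443 and 541 signal units at 0 hours, 514, 486 and 413 at 2 hours, 529, 802 and 987 at 3 days, and 394, 375 and 459.8 at 14 days, with changes of 0.59 at 3 days and −0.28 at 14 days, so the probe sets differ in sign at 14 days. Snx2 remained called at 3 days in each of the 12 fits that left out 1 array and lost the call in 2 of 11 other settings. Snx2 lost the call at 14 days without 0 hours replicates 1, 2 and 3, 2 hours replicate 1, 3 days replicates 1 and 2, or 14 days replicates 1, 2 and 3 (adjusted p of 0.051 to 0.19) and in 7 of 11 other settings, both other scalings among them.

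Snx1 had 744, 663 and 642 signal units at 0 hours, 872, 853 and 647 at 2 hours, 987, 1157 and 1202 at 3 days, and 954, 663 and 860.0 at 14 days. The 3 days arrays of Snx1 lay above those of every other time point. The change was 0.70 ± 0.20 (adjusted p = 0.028) at 3 days and 0.26 ± 0.20 (adjusted p = 0.42) at 14 days against 0 hours. Snx1 lost the call at 3 days without 0 hours replicate 3 or 3 days replicates 2 and 3 (adjusted p of 0.057 to 0.12) and in 3 of 10 other settings. Snx17, which binds the tails of integrins and LRP1 for recycling, rose at 3 days against 2 hours. Snx17 had 223, 618 and 304 signal units at 0 hours, 248, 293 and 162 at 2 hours, 743, 560.4 and 699.6 at 3 days, and 582, 856 and 467 at 14 days. The 3 days arrays lay above all 2 hours arrays, of which 1 was under the floor, and 0 hours replicate 2 lay within the 3 days range. The change was 1.39 ± 0.32 (adjusted p = 0.014), and 0.88 with a floor at the 40th percentile. Snx17 was above the filter on 1 array at 0 hours, on none at 2 hours, on 3 at 3 days and on 2 at 14 days. It was thus tested only because it was high at the later times, and this p-value is no support for its rise. Without a filter its adjusted p in limma was 0.076. A second Snx17 probe set, below the filter, had a change of −0.03. Snx17 lost the call against 2 hours without 2 hours replicate 3 or 3 days replicate 3 (adjusted p of 0.055 to 0.067) and in 3 of 10 other settings. Snx3, Snx4 and Snx9 gave no call, with changes of 0.24, 0.39 and 0.35 at 3 days against 0 hours.

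Of 2 further genes with a Sec name 1 was tested, Sec14l1, a lipid-binding protein. Sec14l1 had 803, 926 and 1029.5 signal units at 0 hours, 1118, 1085 and 1040.5 at 2 hours, 1112, 1519 and 1222 at 3 days, and 1012, 1179 and 1174 at 14 days. All 3 days arrays lay above all 0 hours arrays. The change was 0.48 ± 0.18 (adjusted p = 0.093) at 3 days, short of the threshold. A second Sec14l1 probe set lay below the filter.

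**Figure D3:**
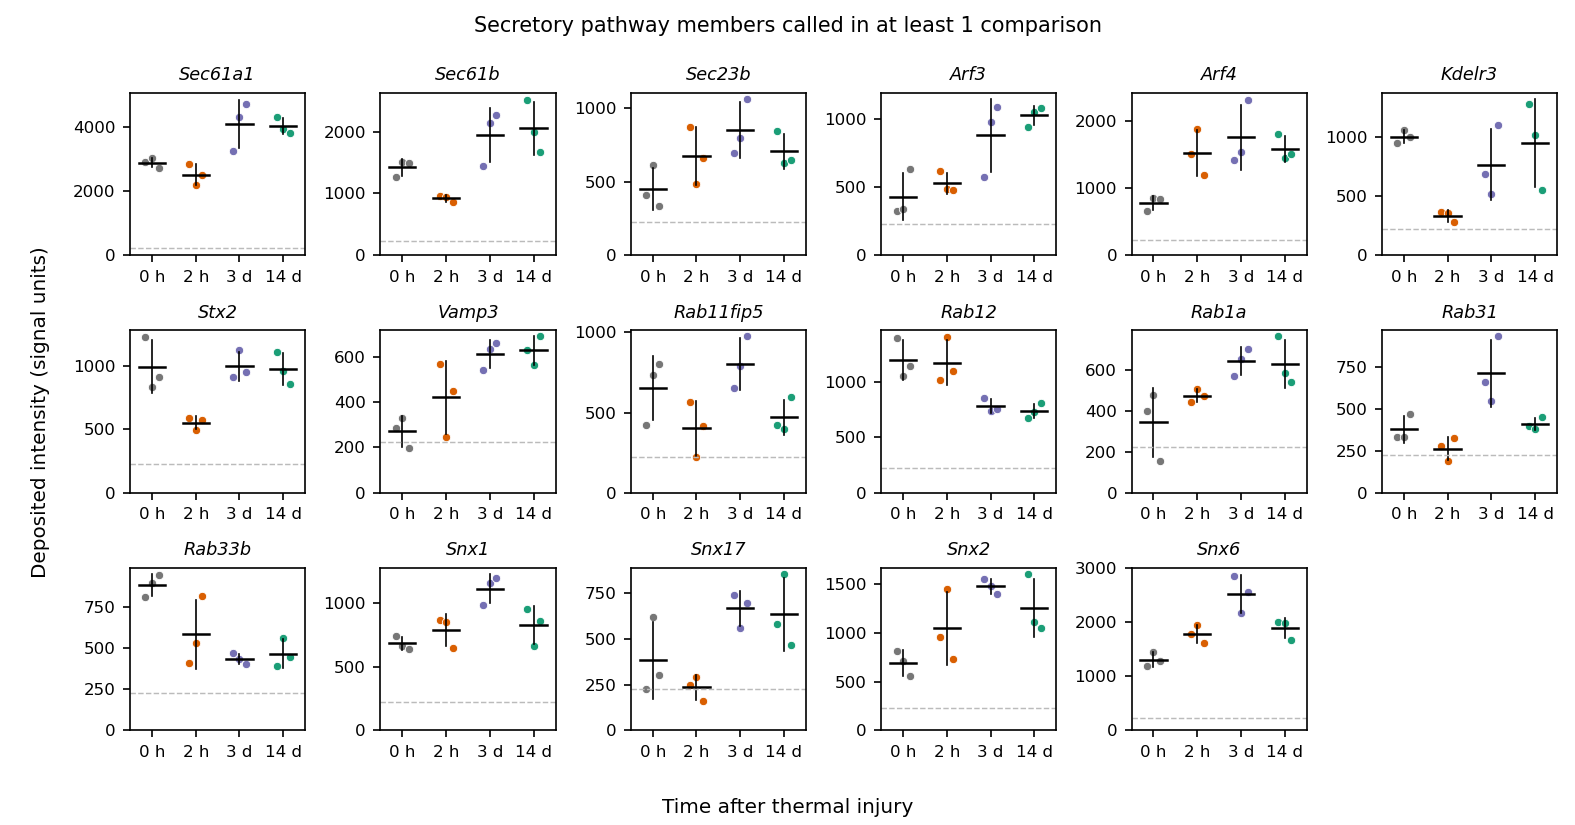
Deposited intensity (signal units, linear axes from 0) of the 17 members called in at least 1 comparison, by time after the injury. Points are arrays, bars the mean ± SD of 3 arrays, and the dashed line is the floor of 225.375. Kdelr3, Stx2 and Sec61b are lowest at 2 hours, Rab12 and Rab33b lie below their 0 hours values at 3 days and 14 days, and Arf4 is higher at each later time.

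**Figure D4:**
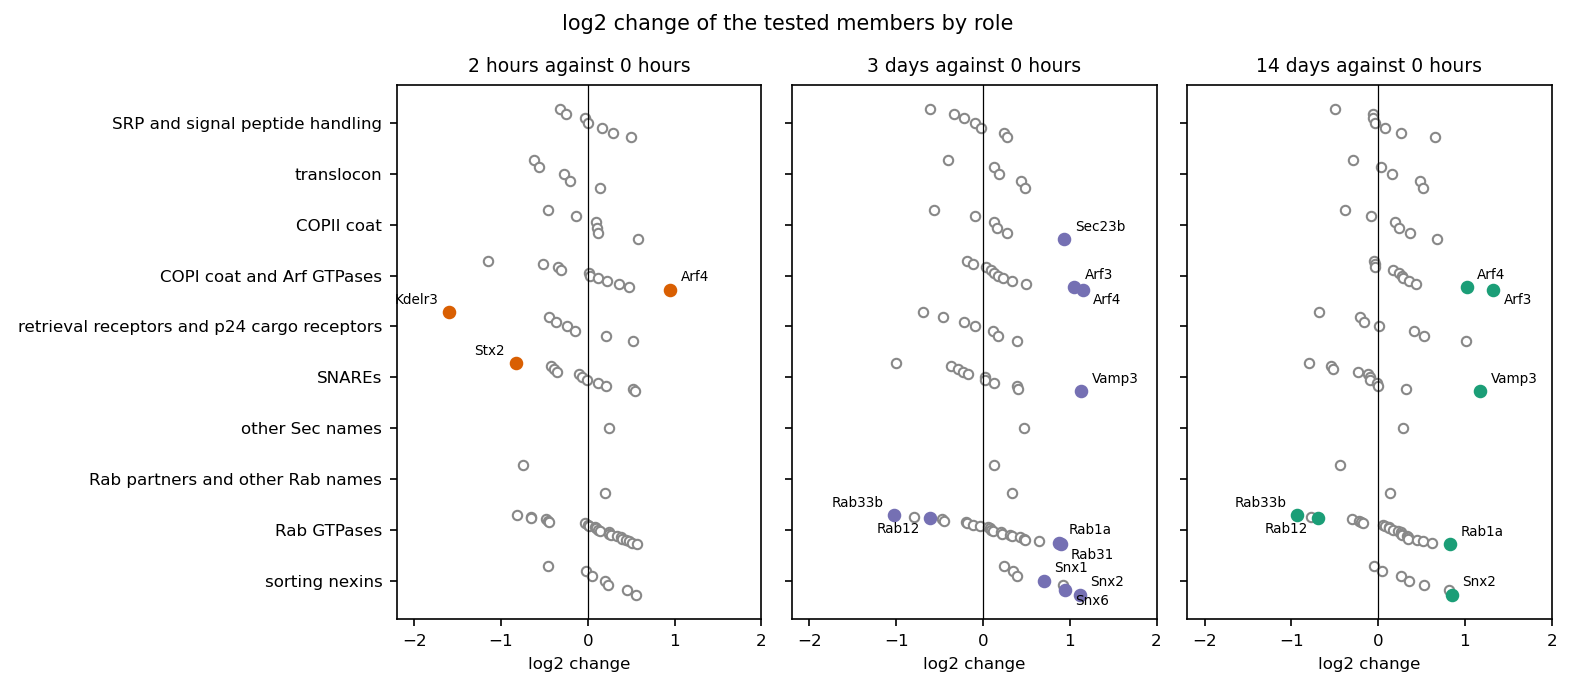
Change in mean log2 intensity of the 80 tested members by role, at 2 hours, 3 days and 14 days against 0 hours. Filled points with names are called, open points are not. At 3 days the 7 sorting nexins all lie above 0, and the 7 genes of the SRP and the signal peptidase lie between −0.61 and 0.28.

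A list of 171 other genes of the pathway had 113 with a probe set and 85 tested. At 2 hours against 0 hours 2 rose and 3 fell, at 3 days 9 rose and 1 fell, at 14 days 6 rose and 2 fell, and at 3 days against 2 hours 6 rose and 2 fell. At 14 days against 3 days limma called none of them, and 3 had an unadjusted p under 0.05. The shares called were 5.88%, 11.8% and 9.41% in the comparisons with 0 hours, near the background of all genes given above. The medians were 0.05, 0.16 and 0.10 at 2 hours, 3 days and 14 days against 0 hours, beside 0.05, 0.02 and 0.05. None of the 7 SNARE partners and 4 Rab regulators tested was called in any comparison.

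Of 13 tested genes of ER folding and the unfolded protein response 3 rose at 3 days and 4 at 14 days against 0 hours. Of all tested genes 8.89% rose at 3 days and 6.9% at 14 days. Both counts include Pdia6, whose p-values are no support for a rise, as given below. The median of the 13 was 0.45 at 3 days and 0.53 at 14 days, beside 0.02 and 0.05 for all genes. Pdia6 is a protein disulfide isomerase. Pdia6 had 92, 154 and 184 signal units at 0 hours, 222, 300.1 and 255 at 2 hours, 349, 786 and 784 at 3 days, and 951, 733 and 592 at 14 days. All 3 arrays at 0 hours were under the floor, and all at 3 days and 14 days were above it. The change was at least 1.41 ± 0.28 (adjusted p = 0.0049) at 3 days and at least 1.72 ± 0.28 (adjusted p = 0.0022) at 14 days, and 0.75 and 1.05 with a floor at the 40th percentile. Pdia6 was above the filter on no array at 0 hours or 2 hours, on 2 at 3 days and on 3 at 14 days, so it was tested only because it was high at the later times, and these p-values are no support for its rise. Without a filter its adjusted p in limma was 0.035 at 3 days and 0.025 at 14 days. Pdia6 remained called at 3 days in each of the 12 fits that left out 1 array and lost the call in 3 of 10 other settings. Pdia6 remained called at 14 days in each of the 12 fits that left out 1 array and lost the call in 2 of 10 other settings.

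Hspa5 (BiP) is the main ER chaperone and a ligand of the KDEL receptors. Hspa5 had 1392, 1720.1 and 1301 signal units at 0 hours, 2852, 2157 and 1981 at 2 hours, 2630.5, 2206 and 2888 at 3 days, and 2815, 2776 and 2201 at 14 days. All later arrays lay above all 0 hours arrays. The change was 0.66 ± 0.20 (adjusted p = 0.073) at 2 hours, 0.81 ± 0.20 (adjusted p = 0.017) at 3 days and 0.82 ± 0.20 (adjusted p = 0.021) at 14 days. Hspa5 lost the call at 3 days without 0 hours replicate 1 or 3 days replicate 3 (adjusted p of 0.053 to 0.088) and in 3 of 11 other settings. Hspa5 lost the call at 14 days without 0 hours replicate 1 or 14 days replicates 1 and 2 (adjusted p of 0.065 to 0.09) and in 3 of 11 other settings. Ero1a re-oxidises the disulfide isomerases, and its probe set may share probes with other transcripts. Ero1a had 652, 674 and 413 signal units at 0 hours, 632, 648 and 627 at 2 hours, 965, 1024 and 1478 at 3 days, and 940.5, 1063 and 1092 at 14 days. The 3 days and 14 days arrays lay above all arrays of 0 hours and 2 hours. The change was 1.00 ± 0.22 (adjusted p = 0.0086) at 3 days and 0.86 ± 0.22 (adjusted p = 0.024) at 14 days against 0 hours. Ero1a lost the call at 3 days without 3 days replicate 3 (adjusted p = 0.055) and in 3 of 11 other settings. Ero1a lost the call at 14 days without 0 hours replicate 3 or 14 days replicates 1, 2 and 3 (adjusted p of 0.06 to 0.075) and in 4 of 11 other settings.

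Creb3l1 is a membrane-bound transcription factor that in mouse bone drives the Col1a1 gene and secretory genes. Creb3l1 had 1842, 1540.0 and 2161 signal units at 0 hours, 963, 1105 and 1012 at 2 hours, 878, 1195 and 1493 at 3 days, and 1584, 1857 and 1297 at 14 days. The 2 hours arrays lay below all 0 hours arrays. The change was −0.84 ± 0.22 (adjusted p = 0.041) at 2 hours. Creb3l1 lost the call at 2 hours without 0 hours replicates 1 and 3, 2 hours replicates 1, 2 and 3, 3 days replicate 2, or 14 days replicates 1 and 2 (adjusted p of 0.052 to 0.13) and in 4 of 11 other settings. The fourth gene that rose at 14 days was Manf, a secreted ER protein, named after its values were seen, with a change of 1.19 ± 0.34 (adjusted p = 0.037), and 0.67 without 0 hours replicate 3. Manf lost the call at 14 days without 0 hours replicates 1 and 3, 2 hours replicate 3, 3 days replicate 2, or 14 days replicates 1 and 2 (adjusted p of 0.052 to 0.13) and in 5 of 11 other settings.

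Of 9 tested genes of translocation and glycosylation 1 rose at 2 hours, Stt3b, a catalytic subunit of the oligosaccharyltransferase, and 1 at 3 days, Tram1, which sits beside the translocon. Of all tested genes 4% rose at 2 hours and 8.89% at 3 days. Tram1 had 954, 1247 and 1044 signal units at 0 hours, 1114, 1395 and 914 at 2 hours, 1862, 1604 and 2440.2 at 3 days, and 1383, 1302 and 1468 at 14 days. The 3 days arrays lay above every other array. The change was 0.85 ± 0.21 (adjusted p = 0.016) against 0 hours and 0.79 ± 0.21 (adjusted p = 0.032) against 2 hours. Tram1 lost the call at 3 days without 0 hours replicate 1 or 3 days replicate 3 (adjusted p of 0.058 to 0.097) and in 3 of 11 other settings. Tram1 lost the call against 2 hours without 2 hours replicates 1 and 3 or 3 days replicate 3 (adjusted p of 0.076 to 0.17) and in 5 of 11 other settings. Stt3b had 277, 420.0 and 217 signal units at 0 hours, 499.7, 711 and 541 at 2 hours, 379, 509 and 547 at 3 days, and 425, 592 and 524 at 14 days. The 2 hours arrays of Stt3b lay above all 0 hours arrays, of which replicate 3 was under the floor. The change was 0.96 ± 0.25 (adjusted p = 0.037), and 0.61 with a floor at the 40th percentile. Stt3b was above the filter on no array at 0 hours, on 3 at 2 hours, on 2 at 3 days and on 2 at 14 days. It was thus tested only because it was high at the later times, and this p-value is no support for its rise. Without a filter its adjusted p in limma was 0.090. Stt3b lost the call at 2 hours without 0 hours replicates 1 and 3, 2 hours replicates 1, 2 and 3, 3 days replicate 2, or 14 days replicate 3 (adjusted p of 0.051 to 0.13) and in 5 of 10 other settings.

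Among 26 tested genes of ER to Golgi coats, cargo receptors and tethers, Sar1b, the GTPase that starts the COPII coat, fell at 3 days and 14 days. Sar1b had 3838, 2970.0 and 2409 signal units at 0 hours, 2918, 2674 and 2735 at 2 hours, 2034, 1085 and 806 at 3 days, and 702, 1241 and 1339 at 14 days. All 3 days and 14 days arrays lay below all arrays of 0 hours and 2 hours. The change was −1.32 ± 0.32 (adjusted p = 0.014) at 3 days and −1.52 ± 0.32 (adjusted p = 0.0093) at 14 days against 0 hours. Sar1b lost the call at 3 days without 0 hours replicate 1 or 3 days replicates 2 and 3 (adjusted p of 0.052 to 0.079) and in 3 of 11 other settings. Over all these fits its change at 3 days ran from −1.69 to −0.14. Sar1b lost the call at 14 days without 14 days replicate 1 (adjusted p = 0.053) and in 3 of 11 other settings. The probe set belongs to the kind that can detect a gene family. Golga4, a tether of the trans-Golgi, fell at 3 days against 2 hours. Golga4 had 1882, 2007 and 1790.1 signal units at 0 hours, 2129, 2836 and 2385 at 2 hours, 1582, 989 and 1229 at 3 days, and 1543, 1252 and 1369 at 14 days. Its 3 days arrays lay below all arrays of 2 hours and 0 hours. The change was −0.97 ± 0.20 (adjusted p = 0.0089). Golga4 lost the call against 2 hours without 3 days replicate 2 (adjusted p = 0.053) and in 1 of 11 other settings.

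Erp44, which returns unfinished immunoglobulins and other clients to the ER, rose at all 3 later times against 0 hours. Erp44 had 269, 473 and 259 signal units at 0 hours, 589.6, 517 and 624 at 2 hours, 602, 498 and 672 at 3 days, and 637, 534 and 494 at 14 days. Every later array lay above all 0 hours arrays. The change was 0.84 ± 0.23 (adjusted p = 0.048) at 2 hours, 0.87 ± 0.23 (adjusted p = 0.023) at 3 days and 0.78 ± 0.23 (adjusted p = 0.045) at 14 days, and 0.54, 0.57 and 0.48 with a floor at the 40th percentile, none of them called. Erp44 was above the filter on no array at 0 hours and on 3 at each later time. It was thus tested only because it was high at the later times, and these p-values are no support for its rise. Without a filter its adjusted p in limma was 0.096 at 2 hours, 0.066 at 3 days and 0.097 at 14 days. Erp44 lost the call at 3 days without 0 hours replicates 1 and 3 or 3 days replicate 3 (adjusted p of 0.07 to 0.11) and in 5 of 10 other settings. Erp44 lost the call at 2 hours without 0 hours replicates 1 and 3, 2 hours replicates 1, 2 and 3, 3 days replicates 1, 2 and 3, or 14 days replicates 1, 2 and 3 (adjusted p of 0.051 to 0.17) and in 8 of 10 other settings. Erp44 lost the call at 14 days without 0 hours replicates 1 and 3, 2 hours replicates 1, 2 and 3, 3 days replicates 1 and 2, or 14 days replicates 1, 2 and 3 (adjusted p of 0.052 to 0.16) and in 8 of 10 other settings. Trappc3, a subunit of the TRAPP tether, had 0.66 ± 0.20 (adjusted p = 0.045) at 3 days. Trappc3 was above the filter on no array at 0 hours, on 1 at 2 hours, on 3 at 3 days and on 3 at 14 days. Its p-value is thus no support for a rise, and without a filter its adjusted p in limma was 0.065. Trappc3 lost the call at 3 days without 0 hours replicates 1 and 2, 2 hours replicates 1, 2 and 3, 3 days replicates 1, 2 and 3, or 14 days replicates 1, 2 and 3 (adjusted p of 0.051 to 0.12) and in 8 of 10 other settings.

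Among 26 tested genes of clathrin adaptors, retromer and endosomal sorting, Ap2a2 and Ap2m1, subunits of the clathrin adaptor AP-2 at the plasma membrane, and Ap1s1, of the Golgi and endosome adaptor AP-1, had the smallest F-test p of the list. Ap2a2 had 2603, 2125 and 2039.5 signal units at 0 hours, 1590.5, 1019.7 and 1084 at 2 hours, 2335, 2029 and 2316 at 3 days, and 1743, 1398 and 1646 at 14 days. The 2 hours arrays lay below all arrays of 0 hours and 3 days. The change was −0.89 ± 0.20 (adjusted p = 0.021) at 2 hours against 0 hours and 0.88 ± 0.20 (adjusted p = 0.014) at 3 days against 2 hours. Both use the 2 hours arrays, so these 2 calls are not independent. Ap2a2 lost the call at 2 hours without 0 hours replicate 1 or 2 hours replicates 2 and 3 (adjusted p of 0.06 to 0.095) and in 2 of 11 other settings. Ap2a2 lost the call against 2 hours without 2 hours replicates 2 and 3 or 3 days replicate 3 (adjusted p of 0.064 to 0.078) and in 1 of 11 other settings.

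Ap2m1 had 2990.0, 2738 and 3332 signal units at 0 hours, 2917, 2696 and 2461 at 2 hours, 3944, 4759 and 4953 at 3 days, and 4157, 4027 and 3718 at 14 days. The 3 days arrays of Ap2m1 lay above all arrays of 0 hours and 2 hours. The change was 0.59 ± 0.17 (adjusted p = 0.037) against 0 hours and 0.75 ± 0.17 (adjusted p = 0.014) against 2 hours. Ap2m1 lost the call at 3 days without 0 hours replicates 1 and 2, 3 days replicates 2 and 3, or 14 days replicate 2 (adjusted p of 0.054 to 0.15) and in 5 of 11 other settings. Ap2m1 lost the call against 2 hours without 2 hours replicate 3 or 3 days replicates 2 and 3 (adjusted p of 0.068 to 0.079) and in 2 of 11 other settings. Ap1s1 had 1071, 1307 and 957 signal units at 0 hours, 1118, 1233 and 1090.5 at 2 hours, 1448, 1622 and 2126 at 3 days, and 2653, 1949.5 and 2013 at 14 days. The 14 days arrays of Ap1s1 lay above all 0 hours arrays. The change was 0.99 ± 0.20 (adjusted p = 0.0091) at 14 days. Ap1s1 lost the call at 14 days without 14 days replicate 1 (adjusted p = 0.054) and in 2 of 11 other settings. Scamp1, a carrier membrane protein, fell at 14 days against 0 hours, by a change of −0.83 ± 0.25 (adjusted p = 0.049). Its probe set belongs to the kind that can detect a gene family. Scamp1 lost the call at 14 days without 0 hours replicates 1, 2 and 3, 2 hours replicates 1, 2 and 3, 3 days replicates 1 and 2, or 14 days replicates 1 and 2 (adjusted p of 0.051 to 0.21) and in 6 of 11 other settings.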

How the data were processed

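The 12 samples of mouse skin, 3 per time point, were each hybridised to 1 Affymetrix array, and groups and replicate numbers come from the labels. The values the authors deposited are linear intensity per probe set, 1 per array. Neither how the authors scaled them nor their software nor how probe sets were selected is stated in the labels or files. Of 7275 probe sets, 27 controls were left out. The 2% trimmed means of the arrays deviated by at most 8.56% from their mean, under the limit of 10%, so no scaling was added. Symbols come from the platform annotation, and the brightest probe set by mean stood for a gene.

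Floor, filter, fit and threshold are given with the results. limma 3.58.1 (R 4.3.3) used 8 residual and 6.64 prior degrees of freedom and was tested on simulated data. With 3 arrays against 3, the smallest p of an exact test is 0.1. Figures used Python 3.11.15, pandas 2.3.3 and matplotlib 3.10.9.

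Members, lists and settings were chosen with earlier results of these data known. Named are all members called in any comparison, for a role without one the member with the smallest F-test p, and per list of other genes up to 4 called ones with the smallest F-test p. The alternatives changed the scaling (quantile normalization, division by the median), the floor (10th or 40th percentile), the filter (none, or the 75th percentile), the probe set (the most variable), the model (a replicate block, the Gapdh ratio or the muscle marker mean as covariate) and the arrays (only both time points compared, or 1 array left out). Replicate numbers were checked and do not pair the arrays.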

Additional observations from a re-analysis of the deposited data

How the results depend on the processing

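Over 59 called values of named genes and 23 settings, 1336 values were compared: 877 remained called, 458 lost the call without a change of sign, and 1 had the opposite sign, Rab33b at 14 days against 0 hours with the Gapdh ratio as a covariate (0.048). No other call of a gene changed in sign. Others shrank strongly in at least 1 setting, among them Sec23b at 3 days to 0.11, Ero1a at 14 days to 0.09 and Sar1b at 3 days to −0.14, all against 0 hours. The members called numbered 1 at 2 hours (against 3) and 5 at 3 days (against 11) when only the 2 time points compared were fitted (1.81% and 6.21% of all genes), and 6, 3 and 4 without a filter at 3 days, at 14 days and at 3 days against 2 hours (against 11, 7 and 7), where 5.25%, 4.30% and 3.11% of all genes were called. A filter at the 75th percentile gave 4 at 14 days (15.3% of all genes). With the Gapdh ratio as a covariate the counts at 3 days, at 14 days and at 3 days against 2 hours were 0, 0 and 0 (0.115%, 0.0575% and 0.460% of all genes), and with the muscle marker mean 0, 0 and 2 (0.144%, 0.403% and 2.99%). At 14 days against 3 days a floor at the 40th percentile and the replicate block each gave 1, Rab31 (3.85% and 2.53% of all genes). When each array was left out in turn, the counts ranged from 1 to 4 at 2 hours, 3 to 16 at 3 days, 1 to 10 at 14 days, 2 to 11 at 3 days against 2 hours, and 0 to 0 at 14 days against 3 days. The shares of all genes then ranged over 2.07% to 9.09%, 5.12% to 16.05%, 3.42% to 14.0%, 3.22% to 11.8% and 1.70% to 3.65%. The cause of these shifts was not tested, except that fewer arrays enter the fits of 2 time points and those without an array.

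Quantile normalization called 9 members higher and 5 lower at 3 days (9 and 2 without it) and 3 higher and 4 lower at 14 days (5 and 2 without it). Division by the median called 9 and 4 at 3 days and 3 and 2 at 14 days. Calls over all genes shifted likewise. Of all genes called, the share that was higher was 66.9% at 3 days and 68.0% at 14 days in the main fit. It was 57.6% and 58.5% with quantile normalization, and 62.6% and 60.5% with division by the median.

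Of the other pathway genes, 5 were called at 2 hours, where 5.67% of all genes were called. The count was 3 with a floor at the 40th percentile (5.46% of all genes) and 2 without a filter (2.54%). It was 3 with a filter at the 75th percentile (9.39%), 3 with the most variable probe set (5.38%) and 2 with the replicate block (4.26%). With the Gapdh ratio it was 1 (3.11%), with the muscle marker mean 1 (4.06%) and with only 2 time points 0 (1.81%). At 3 days 10 were called (13.3% of all genes). The counts were 6 without a filter (5.25%), 0 with either covariate (0.115% and 0.144%) and 2 with only 2 time points (6.21%). At 14 days 8 were called (10.2% of all genes). The counts were 4 without a filter (4.30%), 0 with either covariate (0.0575% and 0.403%) and 3 with only 2 time points (4.40%). At 3 days against 2 hours 8 were called (9.40% of all genes). The counts were 3 without a filter (3.11%), 0 with the Gapdh ratio (0.460%), 2 with the muscle marker mean (2.99%) and 5 with only 2 time points (8.60%). Leaving out each array gave 0 to 6, 1 to 16, 1 to 11, 1 to 9 and 0 to 0 in the order of comparisons above. The ranges of the share of all genes given above for those fits apply here too.

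Of 18 pairs of equal replicate number 2 had a correlation of their deviations over 0.1 (median −0.066, from −0.20 to 0.20), so the numbers are no pairing. The replicate block changed the count of calls by over 1.5 times in the 2 cases given. The values used here carry no detection calls, and signals near the floor limit the changes of dim genes.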

Other observations

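Several probe sets above the filter measured 10 of the members, with 11 probe sets besides the brightest. The sign of the change against 0 hours was that of the brightest probe set for 3 of 11 at 2 hours, 7 of 11 at 3 days and 7 of 11 at 14 days, and the median absolute difference in log2 change was 0.42, 0.57 and 0.75. Genes named here were chosen after their values were seen. For Ssr3, of the translocon-associated protein complex, the 2 other probe sets had changes of 1.67 and 0.86 at 14 days, where the brightest had 0.04. For Rab7, a GTPase of late endosomes, the other probe set had changes of 1.07 at 3 days and 1.19 at 14 days, where the brightest had 0.10 and −0.20. For Rab6a, a Golgi GTPase, they were −0.58 and 0.38 at 2 hours.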
